A study of Homo sapiens with 8 samples.

Results

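The genes examined were 6 human genes: CEBPA, CEBPB, CEBPD, CEBPG and CEBPZ, which are named for binding the CCAAT box or enhancer, and DDIT3. They are not every gene so named, as CEBPE was not examined. H3K27ac, the acetylated form of histone H3 at lysine 27, had been mapped around them by chromatin immunoprecipitation and sequencing (ChIP-seq). The peaks of all 6 libraries were merged wherever they overlapped by at least 1 base, and the merged regions that overlapped a gene's body or the 100 kb on each side of it (its window) were kept. This gave 45 regions of 49186 in the genome. The CEBPA and CEBPG windows overlap, and the same 6 regions lay in both.

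All cells were A549, a human lung adenocarcinoma line in which a KEAP1 mutation leaves the transcription factor NRF2 (gene NFE2L2) constantly active. The 3 control siRNA libraries came from cells given a control siRNA. The 3 NRF2 siRNA libraries came from cells given an siRNA against NRF2, number 28 in replicate 1 and number 30 in replicates 2 and 3. Every culture was harvested 48 h after transfection, and all results are from 1 cell line.

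CEBPA, CEBPB, CEBPD and CEBPG encode C/EBP proteins, which carry a basic region that contacts DNA and a leucine zipper through which they pair with each other and with ATF proteins. DDIT3, also called CHOP, has the zipper but an altered basic region, and is known for its induction in the integrated stress response. CEBPZ is named for the same box but is not a leucine zipper protein, and is known as a nucleolar factor needed for making ribosomes. In lung epithelium C/EBP-alpha and C/EBP-beta are known regulators of differentiation and of inflammatory genes, and NRF2 is itself a leucine zipper protein that binds the antioxidant response element with a small MAF partner.

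The sequences of the acetylated regions that the results below turn on were read from hg19, on the plus strand. Capitals mark matches to the core of the antioxidant response element, TGACNNNGC on either strand. These 7 stretches were chosen because they hold such a match in the called regions near CEBPZ and CEBPA, in the region near CEBPA that only control libraries called, and in the broad domains on either side of CEBPB. The letters TGACTCAGC match both this core and an AP-1 site, TGACTCA, so the sites that read that way or as its complement GCTGAGTCA count under both.
CEBPZ +16 kb, chr2:37443057-37443176: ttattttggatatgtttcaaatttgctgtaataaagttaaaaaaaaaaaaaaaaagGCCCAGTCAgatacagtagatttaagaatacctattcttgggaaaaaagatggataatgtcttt
CEBPA +8 kb, chr19:33784316-33784435: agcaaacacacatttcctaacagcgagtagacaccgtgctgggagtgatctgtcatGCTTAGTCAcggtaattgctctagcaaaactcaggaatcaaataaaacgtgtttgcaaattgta
CEBPA +21 kb, chr19:33771572-33771691: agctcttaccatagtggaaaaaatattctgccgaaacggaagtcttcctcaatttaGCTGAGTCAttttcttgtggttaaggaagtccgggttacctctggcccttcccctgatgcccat
CEBPB -16 kb, chr20:48782781-48782900: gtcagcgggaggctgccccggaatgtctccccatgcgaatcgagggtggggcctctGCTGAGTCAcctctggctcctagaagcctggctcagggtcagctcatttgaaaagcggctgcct
CEBPB -16 kb, chr20:48788523-48788642: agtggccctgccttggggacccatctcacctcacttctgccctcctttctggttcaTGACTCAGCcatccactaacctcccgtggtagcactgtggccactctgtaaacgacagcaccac
CEBPB +87 kb, chr20:48909221-48909340: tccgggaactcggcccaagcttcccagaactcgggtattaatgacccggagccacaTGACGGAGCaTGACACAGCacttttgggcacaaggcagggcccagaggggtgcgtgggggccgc
CEBPB +87 kb, chr20:48909783-48909902: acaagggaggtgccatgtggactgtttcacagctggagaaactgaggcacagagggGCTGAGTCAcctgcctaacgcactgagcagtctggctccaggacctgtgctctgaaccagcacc

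The names give the gene and the distance of the region's nearer edge from the gene's start, with a plus sign for downstream. Both stretches from CEBPB -16 kb lie in 1 region, as do both from CEBPB +87 kb, the first of which holds a pair of cores. The CEBPB +87 kb region reaches past the end of the CEBPB window, and its stretches shown lie in the part beyond.

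At the starts of the genes themselves, shorter stretches of 30 bases are shown with the match in capitals. In the CEBPB start region the 1 antioxidant response element core lies 49 bp upstream of the gene's start. The CEBPG start region has 1 C/EBP-ATF response element (TGATGNAA), 386 bp downstream of the first annotated start. The DDIT3 start region has 1 AP-1 site, on the strand of the gene, 982 bp downstream of the earliest annotated start and within the 250 bases before the RefSeq start. Only 1 kind of motif is shown for each region. The DDIT3 start region also has 4 C/EBP-ATF response elements and 2 cores, and the CEBPG start region 2 cores and 2 AP-1 sites. The CEBPB start region also has 1 C/EBP-ATF response element and 3 AP-1 sites. C/EBP sites (TTGCNNAA) number 11 in the CEBPB, 3 in the DDIT3 and 2 in the CEBPG start region. Of regions within 10% of the same length, 99.6%, 94.2% and 94.6% held such a site.
CEBPB start, chr20:48807299-48807328: aggggccggcgTGACGCAGCggttgctacg
CEBPG start, chr19:33864966-33864995: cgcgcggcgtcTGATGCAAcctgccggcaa
DDIT3 start, chr12:57914520-57914549: ggaggaggtgggTGAGTCAtgcgcgcgcgc

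Of 35116 RefSeq promoters (GRCh38.p14), 10.9% held the antioxidant response element core in the 250 bases before the start, 3.14% the C/EBP-ATF response element and 4.20% the AP-1 site. Over the tested C/EBP regions the core occurred 0.376 times per kb, against 0.391 over all tested regions. C/EBP sites (TTGCNNAA) occurred 0.501 times per kb against 0.569, C/EBP-ATF response elements 0.150 against 0.186, and AP-1 sites 0.301 against 0.276, counting both strands. Of regions within 10% of the same length, 46.8% held a core for CEBPZ +16 kb, 70.9% for CEBPA +8 kb and 43.9% for CEBPA +21 kb. The shares were 98.4% for CEBPB -16 kb, 98.6% for the CEBPB start region and 100% for CEBPB +87 kb. Of the 4 cores in CEBPB -16 kb and the 10 in CEBPB +87 kb only some are shown. These are counts of letters, not of bound factors.

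The peak lists of the whole series differed in length. The control lists held 27941, 34747 and 41571 peaks and covered 64.7, 85.0 and 113 Mb, and the NRF2 siRNA lists held 23885, 34986 and 39108 peaks and covered 46.3, 84.8 and 106 Mb. Replicate 1, the pair with siRNA 28, was the shortest in both groups and the only one whose peak names carry no flow cell, so siRNA and sequencing batch cannot be told apart. Read counts are not part of these lists. The study lists read totals for its libraries, lower in the pair with the shortest lists than in the others, and they were not used here. The starts of EPCAM, KRT8 and KRT18, epithelial markers, were acetylated in all 6 libraries, CDH1 in 3 and KRT19 in 0. None of the lung epithelial markers NKX2-1, SFTPB and NAPSA had a peak at a start, nor had the leukocyte and endothelial markers, and of the fibroblast markers COL1A1 had one in a single control library. The start of NFE2L2 lay between the 94.6 and 98.2 percentile in every library. An siRNA acts on the RNA, so this does not check the knockdown.

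Acetylation around the C/EBP genes took a smaller share of the NRF2 siRNA lists than of the control lists, and most of the difference lay around CEBPB and CEBPA. The windows together held 1105, 1001 and 972 bases per Mb covered in the 3 control lists, and 732, 752 and 743 in the 3 NRF2 siRNA lists. The groups did not overlap, with means of 1026 ± 69.9 and 742 ± 10.1 (SD, n = 3 each). The exact two-sided permutation test gave p = 0.1, the smallest that 3 against 3 libraries allow. The same windows held 33, 35 and 44 peaks in the control lists and 21, 32 and 35 in the NRF2 siRNA lists, and there the groups overlapped (exact p = 0.3). The covered length was 71.5, 85.1 and 110 kb against 33.9, 63.7 and 78.5 kb, which also overlapped (exact p = 0.2).

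By window, CEBPB had 610, 492 and 499 bases per Mb in the control lists and 389, 323 and 330 in the NRF2 siRNA lists, 0.651 times the control mean. The CEBPA and CEBPG windows had 150, 101 and 97.9 bases per Mb against 17.9, 71.0 and 63.6, 0.437 times the control mean. In these 3 windows every NRF2 siRNA list lay below every control list (exact p = 0.1 each, and 0.25 each within pairs). Windows of protein-coding genes were drawn in the same way, and the 16636 with peaks in all 6 libraries were kept. Of these, 11.5% had control lists above all NRF2 siRNA lists, and the median window had 0.996 times the control mean. The other 3 windows overlapped between groups. CEBPD had 97.7, 145 and 136 bases per Mb against 117, 133 and 138 (exact p = 0.9). DDIT3 had 163, 196 and 173 against 177, 141 and 148 (exact p = 0.3), and CEBPZ 84.4, 67.6 and 66.5 against 30.7, 83.7 and 63.4 (exact p = 0.4).

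**Figure D1:**
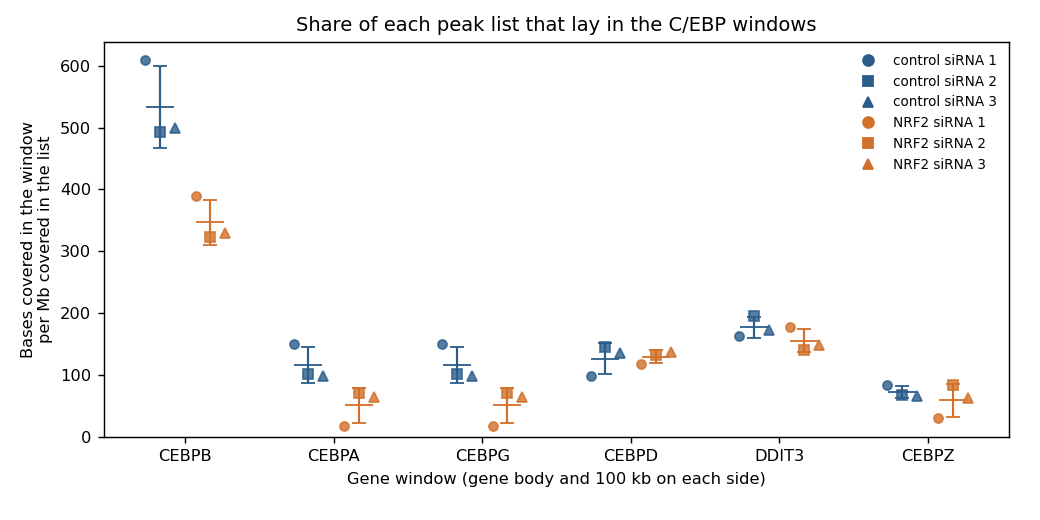
Bases covered by H3K27ac peaks in each gene window per Mb covered in the whole list (y axis), by gene window (x axis). Symbols are libraries, crossbars the group means and error bars the SD (n = 3). The CEBPB points of the 2 groups are separate, at 492 to 610 for control siRNA and 323 to 389 for NRF2 siRNA, and those of CEBPD overlap.

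Of the 45 regions, 17 were called in all 6 libraries, 6 in 5, 6 in 4, 3 in 3, 2 in 2 and 11 in a single library. The 13 regions called in 1 or 2 libraries were not tested. Of the 11 in a single library, 8 came from control library 3, which has the longest list, 2 from control library 1 and 1 from NRF2 siRNA library 3, at percentiles from 3.13 to 50.3. The 32 called in at least 3 libraries were compared by rank. In each library the regions were ranked by their highest fold enrichment. The ranks were turned into normal scores, the matching quantiles of a standard normal distribution, whose SD is 1 unit. Then limma was fitted across 32673 regions with Benjamini-Hochberg adjustment at 0.05. In the C/EBP windows 2 regions fell and 0 rose. Over all tested regions 3.39% fell and 2.01% rose. With the replicate number as a block 5 fell and 0 rose, and without control library 2 or control library 3 none fell. The share of all tested regions called by these other fits is not given here. At an unadjusted p under 0.05 there were 8 of the 32, against 22.5% of all tested regions. The score was lower with NRF2 siRNA in 26 of the 32, where 48.5% of all tested regions had a difference below 0, and the median difference was -0.40 against 0.02 over all tested regions.

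Control scores lay above all NRF2 siRNA scores in 11 of the 32 regions, against 13.6% of all tested regions, and NRF2 siRNA scores above all control scores in 1, against 14.6%. In each library the uncalled regions share a tied lowest score, which differs between libraries, and these counts include such ties. The 1 region, the SULT6B1 start, was not called in NRF2 siRNA library 1 but was called in control library 3. CEBPA +21 kb, called in the 3 control libraries only, is not among the 11. The median difference was -0.26 in the siRNA 28 pair, and -0.39 and -0.28 in the siRNA 30 pairs, where the medians over all tested regions were 0.17, 0.02 and 0.00076. Regions called in 3 control libraries and no NRF2 siRNA library numbered 1 of 45, against 2.27% of all regions, and the opposite 0 of 45, against 0.83%. By window the tested regions with a lower score numbered 11 of 11 for CEBPB, 5 of 5 for CEBPA and CEBPG, 6 of 7 for DDIT3, 3 of 6 for CEBPZ and 1 of 3 for CEBPD. Many regions sit at the starts of neighbouring genes such as UBE2V1, GLI1 or EIF2AK2, and were kept because the windows contain them.

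**Figure D2:**
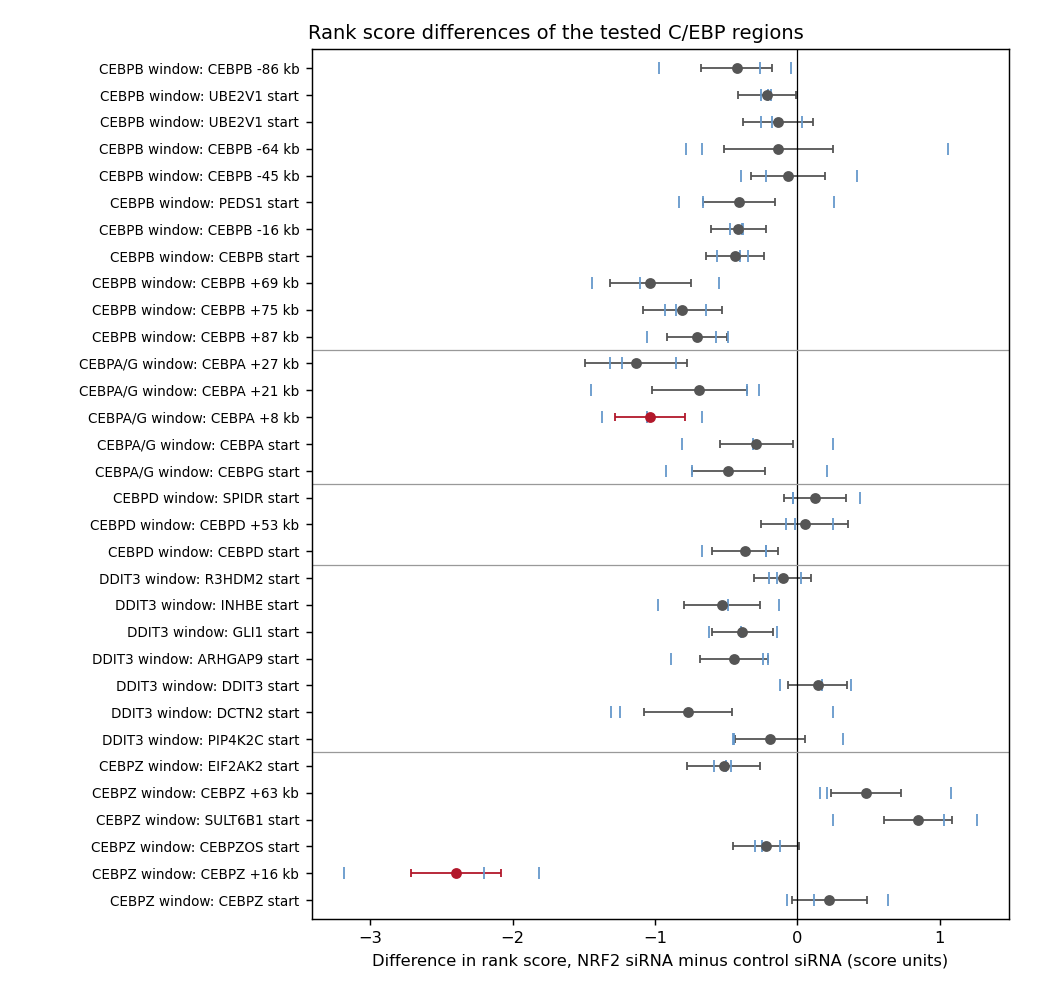
Difference in rank score between NRF2 siRNA and control siRNA (x axis, score units) for the 32 tested regions (y axis), grouped by window. Points are the limma estimates with their SE, small blue bars the 3 replicate pairs, and red marks an adjusted p under 0.05. Both red points, CEBPZ +16 kb and CEBPA +8 kb, lie below 0, as do all 11 regions of the CEBPB window.

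CEBPB encodes C/EBP-beta, the family member best known for acute phase and inflammatory transcription. Its start lay in a merged region of 12175 bp (chr20, 48801978 to 48814152) that also holds the start of the antisense transcript CEBPB-AS1. The region's highest fold stood at the 90.9, 88.4 and 94.1 percentile of the control lists and at the 79.4, 78.8 and 83.9 percentile of the NRF2 siRNA lists. Every NRF2 siRNA library lay below every control library, with means of 91.1 ± 2.89 and 80.7 ± 2.82 (SD, n = 3 each, exact p = 0.1). Permuted within the replicate pairs the exact p was 0.25. The score difference of -0.44 (SE 0.20) did not pass the test across the genome (limma, adjusted p = 0.245).

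Broad domains flank CEBPB on both sides, at the starts of long noncoding RNAs. The upstream domain, CEBPB -16 kb, spans 11861 bp (chr20, 48779275 to 48791135) and holds the starts of LINC01273 and LINC01275. It stood at the 96.7, 95.5 and 96.8 percentile with control siRNA and at 89.1, 90.4 and 92.7 with NRF2 siRNA. The groups did not overlap, and the score difference was -0.41 (SE 0.19, limma adjusted p = 0.247). The downstream domain, CEBPB +87 kb, spans 20791 bp (chr20, 48894774 to 48915564) and holds the start of LINC01270. It stood at the 90.7, 85.6 and 87.6 percentile against 45.6, 72.0 and 71.6, again with no overlap, and the score difference was -0.71 (SE 0.21, limma adjusted p = 0.0858). With the lists cut to equal length it passed, at limma adjusted p = 0.0465, and at 0.0340 with the replicate block as well. It did not pass with the block alone (0.0593) or over regions called in all 6 libraries (0.0533). Nor did it pass with replicates 2 and 3 only (0.123) or without any single library (0.112 to 0.207).

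Between that domain and the gene lie 4 regions within the long noncoding RNA PELATON, of which 2, both intronic, were called only in control library 3 and were not tested. CEBPB +75 kb, at its start (chr20, 48882493 to 48886192), stood at the 58.6, 43.6 and 60.9 percentile with control siRNA and at 5.10, 9.12 and 25.6 with NRF2 siRNA. CEBPB +69 kb, at one of its exons (chr20, 48875971 to 48879013), stood at the 50.2, 42.7 and 56.1 percentile of the control lists, was not called in NRF2 siRNA libraries 1 and 2, and stood at 33.8 in the other. In both regions all NRF2 siRNA libraries lay below all control libraries. The score differences were -0.81 (SE 0.28, limma adjusted p = 0.124) and -1.03 (SE 0.29, adjusted p = 0.0701). With the replicate number as a block both passed, at limma adjusted p = 0.0295 and 0.0260. CEBPB +69 kb also passed with lists cut to equal length (0.0468). It did not pass with replicates 2 and 3 only (0.0975) or without any single library (0.0704 to 0.223).

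**Figure D3:**
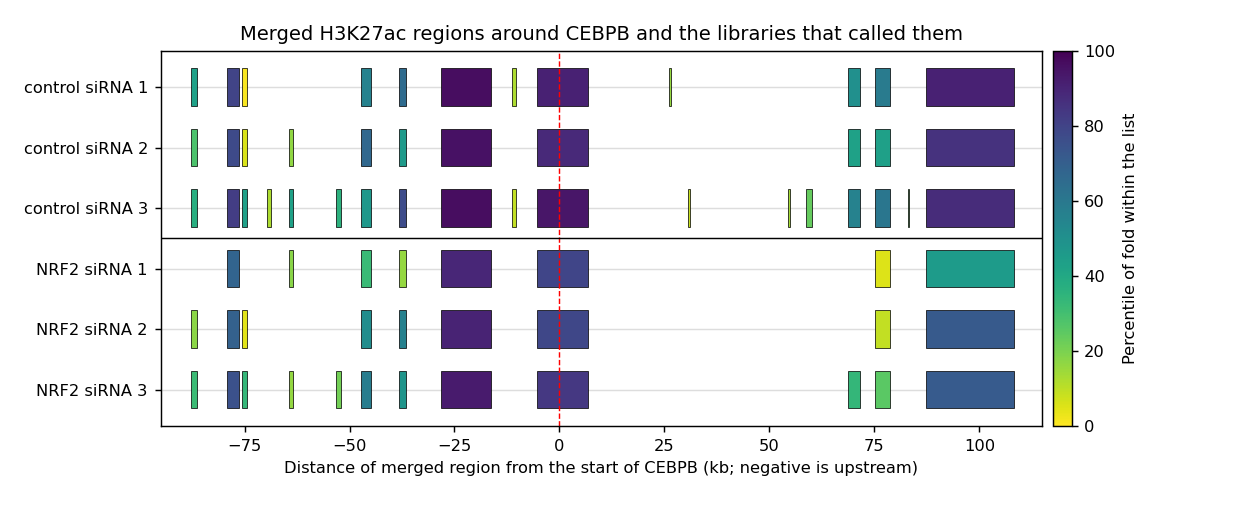
Merged H3K27ac regions by distance from the start of CEBPB (x axis, kb) in the 6 libraries (y axis). A bar has the width of the merged region, not of the library's own peak, is drawn where that library called the region, and is coloured by the percentile of its fold. The domains at -16 kb, at the start (dashed line) and at +87 kb are called in every row, with the highest percentiles in the control rows.

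The covered length of these domains was also compared. In the CEBPB start region peaks covered 10221, 10514 and 12175 bases with control siRNA and 6582, 8285 and 8028 with NRF2 siRNA. In CEBPB -16 kb they covered 11193, 9114 and 9391 against 4613, 6645 and 8347, and in CEBPB +87 kb 11533, 15591 and 20791 against 3676, 6498 and 8759. All 3 domains were longer in every control library than in any NRF2 siRNA library. Over the 17 C/EBP regions called in all 6 libraries, the covered length did not overlap with control above in 5, against 7.65% of such regions in the genome, and with NRF2 siRNA above in 0, against 2.9%.

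With each library's median length taken out, a limma fit of log2 covered length across 16845 regions called 0 of the 17 and 0% of all regions. At an unadjusted p under 0.05 there were 2 of the 17 and 1930 of all. The lowest adjusted p among the 17 was 0.0906, at CEBPB +87 kb, where the difference was -1.28 on the log2 scale. The difference was below 0 in 15 of the 17, with a median of -0.36, against -0.03 over all regions in this fit.

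**Figure D4:**
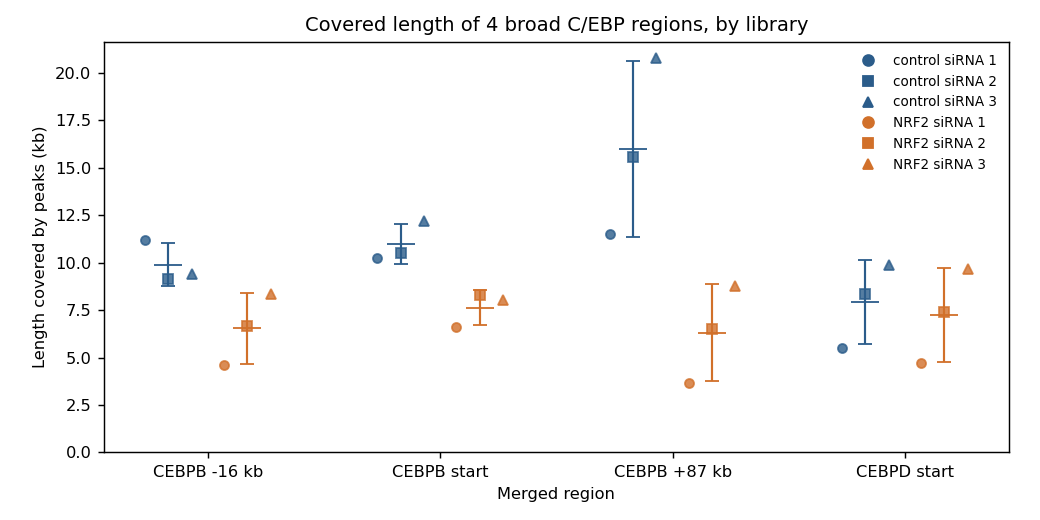
Length covered by peaks (y axis, kb) in 4 broad regions (x axis). Symbols are libraries, crossbars the group means and error bars the SD (n = 3). In the 3 CEBPB regions all control libraries lie above all NRF2 siRNA libraries, whereas at the CEBPD start 5504, 8369 and 9859 bases with control siRNA overlap 4714, 7403 and 9648 with NRF2 siRNA.

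Among 7033 start regions called in all 6 libraries, the percentiles most like those of the CEBPB start were at ADM, RBM3, CLIP1, the shared start of CBX5 and HNRNPA1, and the shared start of ISCU and SART3. Their mean absolute difference from CEBPB over the 6 libraries was 0.975, 1.58, 1.60, 1.70 and 1.75 percentile points.

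CEBPA encodes C/EBP-alpha, known for driving differentiation and restraining proliferation. Its start region (chr19, 33793101 to 33794432) was weakly acetylated. It was not called in either library of the siRNA 28 pair, stood at the 37.9 and 45.1 percentile in control libraries 2 and 3, and at 5.50 and 30.5 in NRF2 siRNA libraries 2 and 3. The score difference was -0.29 (SE 0.26, limma adjusted p = 0.558).

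The region 7954 bp downstream of the CEBPA start, CEBPA +8 kb, was one of the 2 that fell. It is intergenic (chr19, 33782128 to 33785486), and its antioxidant response element core is the second sequence above. It stood at the 62.6, 47.8 and 56.9 percentile in the control lists, was not called in NRF2 siRNA library 1, and stood at 20.5 and 17.4 in the others. All control libraries lay above all NRF2 siRNA libraries. The score fell by 1.03 (SE 0.25, limma adjusted p = 0.0448). Leaving out any single library moved the adjusted p above 0.05, to between 0.0543 and 0.132, and with the replicate block it was 0.0202.

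Farther from CEBPA, region CEBPA +21 kb (chr19, 33771069 to 33772279, intergenic) was the one called in all 3 control libraries, at the 2.01, 2.16 and 41.4 percentile, and in no NRF2 siRNA library. Its control values were mostly near the bottom of the lists, and the score difference was -0.69 (SE 0.33, limma adjusted p = 0.262). Region CEBPA +27 kb (chr19, 33764853 to 33766155, intergenic) stood at the 60.0, 19.0 and 44.9 percentile in the control lists and at 0.38 in the single NRF2 siRNA library that called it. The groups did not overlap, and the difference was -1.13 (SE 0.36, limma adjusted p = 0.101, and 0.0123 with the replicate block). It passed with replicates 2 and 3 only (0.0266) and did not pass without any single library (0.0552 to 0.285).

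CEBPG encodes C/EBP-gamma, a short member without the usual activation domain that pairs with ATF4 and with other C/EBP proteins. Its start region (chr19, 33863921 to 33869219) stood at the 40.3, 63.7 and 74.7 percentile with control siRNA and at 40.2, 34.0 and 41.2 with NRF2 siRNA. The groups overlapped, since the libraries of replicate 1 were alike and those of replicates 2 and 3 were not (exact p = 0.2). The score difference was -0.48 (SE 0.26, limma adjusted p = 0.303). With replicates 2 and 3 only it was -0.83 and passed (adjusted p = 0.0386).

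CEBPD encodes C/EBP-delta, an early responder to inflammatory signals. Its start region (chr8, 48642285 to 48652150) stood at the 80.8, 87.7 and 91.1 percentile in the control lists and at 44.3, 82.8 and 86.3 in the NRF2 siRNA lists. The percentiles of the groups overlapped, and the low value was that of the siRNA 28 library (exact p = 0.4). In rank scores the groups did not overlap, and every control library lay above every NRF2 siRNA library. The score difference was -0.37 (SE 0.23, limma adjusted p = 0.395). Without NRF2 siRNA library 1 it was -0.17, and the percentile difference moved from -15.4 to -1.98 points. The other 2 regions of the window, at the start of SPIDR and within it, had score differences of 0.12 and 0.05.

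DDIT3 encodes the stress factor CHOP. Its start region (chr12, 57912542 to 57917717), shared with starts of MBD6 and of MIR616, stood at the 79.0, 83.9 and 93.1 percentile with control siRNA and at 86.6, 87.8 and 90.8 with NRF2 siRNA. The groups overlapped throughout (exact p = 0.5), and the score difference was 0.14 (SE 0.21, limma adjusted p = 0.743). The largest difference below 0 in this window was -0.77 at the start of DCTN2 (SE 0.31, adjusted p = 0.182), a dynactin subunit. With replicates 2 and 3 only it was -1.28 and passed (limma adjusted p = 0.0147). The widest region of this window, at the GLI1 start, stood at the 71.5, 80.6 and 85.2 percentile with control siRNA. With NRF2 siRNA it stood at 44.1, 59.8 and 80.6, and its score difference was -0.39 (SE 0.21, limma adjusted p = 0.330).

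CEBPZ shares its start region with NDUFAF7, a mitochondrial complex I assembly factor (chr2, 37457846 to 37459848). It stood at the 50.5, 48.7 and 66.0 percentile in the control lists and at 72.6, 53.7 and 60.8 in the NRF2 siRNA lists. The groups overlapped (exact p = 0.5), and the score difference was 0.23 (SE 0.27, limma adjusted p = 0.674).

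Within the body of CEBPZ, however, lay the region that fell most. CEBPZ +16 kb (chr2, 37441759 to 37443229) begins 15510 bp downstream of the start, covers a coding exon of CEBPZ and an exon of the antisense gene CEBPZOS, and its antioxidant response element core is the first sequence above. It stood at the 79.5, 89.9 and 90.5 percentile in the control lists, at 12.4 in NRF2 siRNA library 2, and was not called in NRF2 siRNA libraries 1 and 3. Control libraries were high without exception and NRF2 siRNA libraries low or absent. The score fell by 2.40 (SE 0.32, limma adjusted p = 0.00915). The adjusted p was 0.0547 without control library 2 and 0.0540 without control library 3. In the same window a region at the start of SULT6B1, a sulfotransferase gene, was called at the 8.33 percentile in 1 control library and at 32.3 and 38.8 in NRF2 siRNA libraries 2 and 3, with a score difference of 0.85 (SE 0.24, adjusted p = 0.0719, and 0.0167 with replicates 2 and 3 only).

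**Figure D5:**
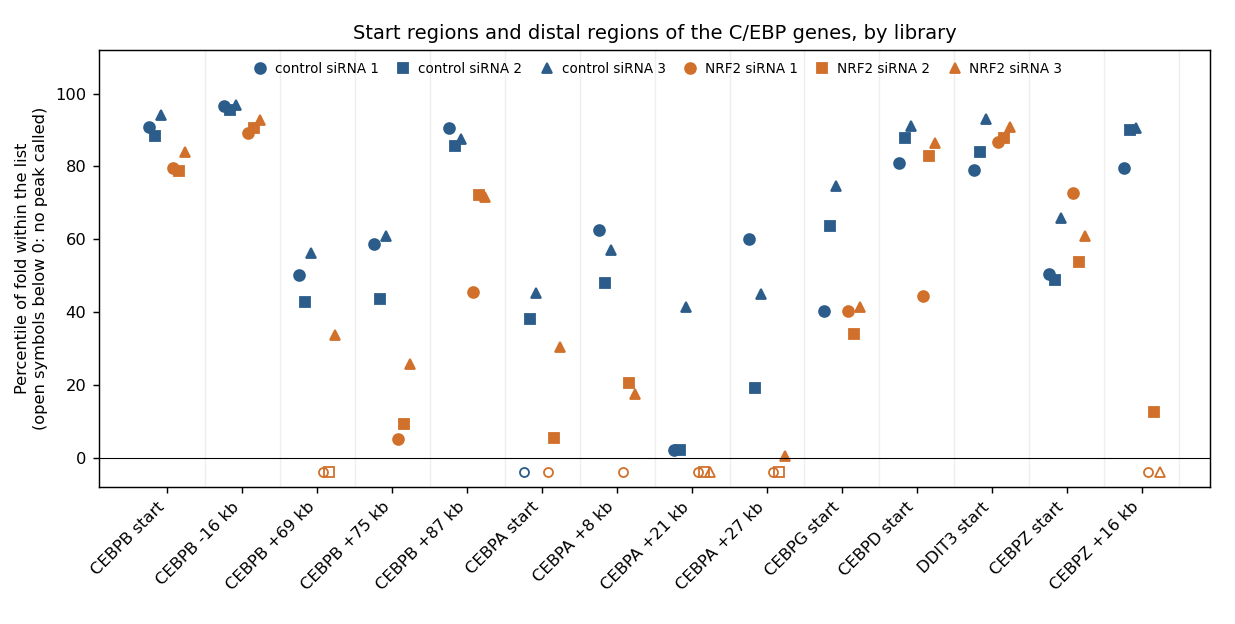
Percentile of the highest fold within each library's list (y axis) for the start regions and named distal regions of the C/EBP genes (x axis). Filled symbols are libraries, and open symbols below 0 are libraries that called no peak. Control and NRF2 siRNA symbols are separate at the CEBPB start and its flanking domains, overlap at the CEBPD, DDIT3 and CEBPZ starts, and are farthest apart at CEBPZ +16 kb.

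Genes linked to the family were described in the same way, with the regions in the gene or within 20 kb of it. Over all tested regions 48.5% had a lower score, the median difference was 0.02, 3.39% fell and 2.01% rose. For 10 genes of the stress response, among them ATF4 and its partner ATF3, 12 of 21 tested regions had a lower score and 9 a higher one, with a median difference of -0.07, and 0 fell or rose. Of 10 inflammatory genes 5 had a region, and 3 of 8 tested regions were lower and 5 higher, with a median of 0.30. There LCN2, which encodes the iron carrier lipocalin, had a region that fell by 1.01 (SE 0.23, limma adjusted p = 0.0376), and TNFAIP6, a hyaluronan-binding protein, a region that rose by 1.98 (SE 0.35, adjusted p = 0.0180).

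Of 8 genes of lung epithelium 6 had a region, and 5 of 16 tested regions were lower and 11 higher, with a median of 0.25 and 0 calls. The regions counted for SFTPB and NAPSA were not at their starts. For 8 canonical NRF2 targets, GCLC and SRXN1 among them, 24 of 28 tested regions were lower, with a median of -0.65, and 3 fell and 0 rose. Of all tested regions, 48.5% were lower, 3.39% fell and 2.01% rose. The target regions that fell included one at GCLC, which makes glutathione (-1.37, SE 0.22, adjusted p = 0.0134), and one at SRXN1, a sulfiredoxin (-1.06, SE 0.21, adjusted p = 0.0267), by the same limma fit.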

How the data were processed

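H3K27ac ChIP-seq peak lists of 3 control siRNA and 3 NRF2 siRNA libraries were used, and the 2 input samples, for which no file was used here, were not analysed. Per the submitters' processing notes and the study's methods, the authors trimmed reads with cutadapt 1.15, aligned them to hg19 with Bowtie2 2.2.6, filtered poorly mapped reads with SAMtools, used MACS2 2.1.0.20151222 to call broad peaks library by library and removed blacklisted peaks. Which input served as background is not given in the sources used here. Each deposited list gives an integer score, a ratio (fold enrichment over the background), and p and q as −log10 values. The fold was used for ranks within a list, never between lists, since longer lists can come from deeper libraries.

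A region's percentile is that of its highest peak's fold among the peaks of the list. Regions without a peak in a library shared its lowest rank. Scores and covered lengths were fitted with limma 3.58.1 in R 4.3.3, group only, after the step had been tested on simulated data. Values with 1 number per library were compared by exact two-sided permutation tests in Python 3.11.15, where scipy 1.17.1 gave the ranks and normal scores. Genes came from GENCODE lifted to GRCh37. All 24 chromosomes with peaks were found in that sequence and 0 peaks passed their ends.

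Deviations from the group means correlated within replicate pairs (r = 0.398, 0.199 and 0.363), so the replicate numbers were taken to pair the libraries, and the fit was repeated with a replicate block. Exact p values ignore this pairing unless the pairs are named. The study describes 3 independent experiments. Regions named were each gene's start region, those called, those with the largest fall or rise in each window and those called in 1 group only, and flanking domains were added after their values were seen. The genes, lists and rules were chosen with earlier results of these data known. The values of 1 gene of the NRF2 target list are not reported here.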

Additional observations from a re-analysis of the deposited data

Results flagged for a closer look

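Among the regions named by rule, there were 4 start regions at which the score moved up in the siRNA 28 pair and down in both siRNA 30 pairs. Over all tested regions the median score change in the siRNA 28 pair was 0.17. This difference was not tested. At the CEBPG start the score changed by 0.210 in the siRNA 28 pair and by -0.74 and -0.92 in the siRNA 30 pairs. Its percentile in the siRNA 28 pair did not rise, at 40.3 with control siRNA and 40.2 with NRF2 siRNA. At the SPIDR start the score changed by 0.437 against -0.03 and -0.03. At the CEBPA start it changed by 0.251 against -0.81 and -0.31, and at the DCTN2 start by 0.251 against -1.31 and -1.25. The last 2 regions were called in neither library of the siRNA 28 pair, and the value 0.251 is the distance between the tied lowest scores of those libraries, which follows from the number of regions each did not call. Of the tested regions not named by rule, 3 had the same pattern of signs, among them the R3HDM2 start, with 0.03 against -0.14 and -0.20. There the percentile in the siRNA 28 pair was lower with NRF2 siRNA (67.8) than with control siRNA (72.3). With replicates 2 and 3 only, the CEBPG and DCTN2 starts passed the limma test (adjusted p = 0.0386 and 0.0147).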

How the results depend on the processing

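The study gives read totals, which were not set against the peak lists, so what depth limits was not measured. The count of regions that fell, 2 of 32, was 4 of 22 with lists cut to equal length and 1 of 19 with peaks of q at most 1e-05. It was 1 of 17 over regions called in all 6 libraries, a fit that holds neither of the 2, and 1 of 45 over regions called in at least 1 library. It was 5 of 32 with the replicate block, 5 of 22 with the block and equal list lengths, and 5 of 32 with replicates 2 and 3 only, where 1 region rose. Leaving out single libraries gave 0 to 2, with 0 without control library 2 or control library 3. The share of all regions called under each of these fits is not given here, so these counts were not set against it. The median difference of -0.40 was -0.54 at the stricter q, -0.49 over regions called in all 6 libraries and -0.25 over those called in at least 1, and -0.43 to -0.32 without single libraries. The percentile difference at the DDIT3 start, 3.07 points, was -0.0764 to 6.95 without single libraries, and below 0 without control library 1. The CEBPZ start difference was -0.0473 to 0.370 without single libraries, and below 0 without NRF2 siRNA library 1. The SPIDR start difference was -0.0334 with replicates 2 and 3 only and -0.0474 to 0.221 without single libraries, and below 0 without control library 1. The cause of these moves was not tested. Among the regions named by rule, alternatives left 164 values on their side of the threshold, 10 gained and 9 lost a call, and 3 changed direction.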
